A study of Mus musculus with 47 samples.

Results

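The interferon response genes examined here were 35 genes that interferons are known to induce, or that control that induction, chosen by symbol. Each of the 35 symbols matched a single entry among 48795 genes of the deposited count table, and all 35 passed the filter on low counts that kept 19193 genes. Striatal RNA of C57BL mice aged 6 months was sequenced, giving 47 libraries of 6 genotypes. The Q140 allele is a knock-in of an expanded CAG repeat into the mouse huntingtin gene Htt and models Huntington's disease, and Ccdc82 encodes a coiled-coil domain protein. The groups were heterozygous Q140 mice with homozygous mutant Ccdc82 (Q140 Ccdc82-/-, 7 libraries), heterozygous Q140 mice with heterozygous mutant Ccdc82 (Q140 Ccdc82+/-, 8), heterozygous Q140 mice with intact Ccdc82 (Q140, 8), homozygous Ccdc82 mutants (Ccdc82-/-, 8), heterozygous Ccdc82 mutants (Ccdc82+/-, 8) and wild type mice (8). Each group held 4 females and 4 males, except that Q140 Ccdc82-/- held 3 females. The labels do not say how the Ccdc82 allele was made, nor that each library came from a separate animal, so p-values measure the spread between these libraries, which may be partly technical. Ccdc82 RNA reached 3.67 to 5.35 CPM (the read count relative to the TMM-scaled library total, per M reads) in Q140 Ccdc82-/- and 3.92 to 5.87 CPM in Ccdc82-/-, against 10.1 to 12.8 CPM in Q140 and 10.6 to 12.9 CPM in wild type, and 7.27 to 9.99 CPM in Q140 Ccdc82+/- and 7.70 to 9.19 CPM in Ccdc82+/-, so the RNA was lower with each mutant copy and was still detected in the homozygotes. Libraries held 41.3 M to 61.7 M counted reads.

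Interferons are secreted signals of antiviral and immune defence. Type I interferons act through a receptor that activates a complex that includes Stat2 and Irf9 and binds interferon-stimulated response elements (ISRE). Interferon gamma acts through another receptor, and many of its target genes carry gamma-activated sequences (GAS). In the brain, microglia and endothelial cells are among the cells known to respond.

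The promoters below are shown because they carry, in capitals, matches to the cores of these response elements, and because they belong to genes named in the results. They are RefSeq windows of build GRCm38.p6, from 250 bases before to 50 bases after the annotated start, 5′ to 3′ on the gene's strand. Capitals mark matches to GAAANNGAAA, the core of the ISRE, or to TTCNNNGAA, the core of the GAS, searched on both strands. In Isg15, 3 matches overlap in 1 run, and in Igtp a GAS match stands just before an ISRE match.
Isg15, chr4:156200769-156201068, minus strand: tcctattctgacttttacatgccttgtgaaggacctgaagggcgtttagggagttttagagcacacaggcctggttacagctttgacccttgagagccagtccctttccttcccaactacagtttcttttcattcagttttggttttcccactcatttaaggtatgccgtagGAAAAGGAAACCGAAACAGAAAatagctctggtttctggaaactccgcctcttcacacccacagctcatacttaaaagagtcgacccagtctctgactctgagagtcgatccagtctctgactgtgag
Ifit1, chr19:34640639-34640938, plus strand: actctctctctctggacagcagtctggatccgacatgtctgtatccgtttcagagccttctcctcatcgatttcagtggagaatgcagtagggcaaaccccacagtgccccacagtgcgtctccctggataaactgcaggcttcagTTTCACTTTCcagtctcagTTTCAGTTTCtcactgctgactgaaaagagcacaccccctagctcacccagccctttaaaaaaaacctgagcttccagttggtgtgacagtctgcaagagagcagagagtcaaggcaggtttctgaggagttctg
Igtp, chr11:58199306-58199605, plus strand: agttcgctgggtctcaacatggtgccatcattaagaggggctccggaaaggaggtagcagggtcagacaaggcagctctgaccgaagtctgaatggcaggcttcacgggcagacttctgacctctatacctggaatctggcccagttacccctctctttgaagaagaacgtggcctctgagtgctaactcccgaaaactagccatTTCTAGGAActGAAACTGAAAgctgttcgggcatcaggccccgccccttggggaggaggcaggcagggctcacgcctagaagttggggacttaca
Stat2, chr10:128270248-128270547, plus strand: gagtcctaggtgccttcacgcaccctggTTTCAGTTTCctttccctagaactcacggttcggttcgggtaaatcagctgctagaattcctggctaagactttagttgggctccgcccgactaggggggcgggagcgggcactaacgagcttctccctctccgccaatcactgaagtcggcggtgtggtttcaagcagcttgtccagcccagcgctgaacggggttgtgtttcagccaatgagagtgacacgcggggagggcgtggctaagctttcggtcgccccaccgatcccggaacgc
Irf1, chr11:53769764-53770063, plus strand: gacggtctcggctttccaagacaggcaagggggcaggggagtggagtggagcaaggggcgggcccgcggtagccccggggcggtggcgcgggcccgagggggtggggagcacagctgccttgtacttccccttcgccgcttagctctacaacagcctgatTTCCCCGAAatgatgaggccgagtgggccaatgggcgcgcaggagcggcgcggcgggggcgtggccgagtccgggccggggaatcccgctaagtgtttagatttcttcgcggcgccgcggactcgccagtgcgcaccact
Of the 25 members with a window in that table, 16 held the ISRE core and 9 the GAS core. Over all 27025 genes in the table, 3.99% held the ISRE core and 9.55% the GAS core. The window of Xaf1 and another window of Irf1 held neither core, and the windows of Ifit2 held no ISRE core. A match describes letters in a window and not a bound site. Windows for Ifi27l2a, Ifi27, Usp18, Rtp4, Dhx58, Iigp1, Mx1, Mx2, Parp14 and Zbp1 were not in the table.

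Most members were expressed at a low level. The deposited FPKM scale corrects for length. On it the wild type means ran from 0.0322 ± 0.0149 FPKM (SD, n = 8) for Mx1 to 7.61 ± 0.506 FPKM for Ifi27, a small mitochondrial membrane protein. Stat2 at 6.66 ± 0.370 FPKM and Ifitm3, which blocks viral fusion, at 6.65 ± 0.837 FPKM lay next to each other and within their spread, and Lgals3bp, a secreted glycoprotein, followed at 3.92 ± 0.537 FPKM. The median member had a mean log2 CPM of 1.64, against 3.61 for all genes tested, and a standard error of 0.12 for its log2 fold change between Q140 and wild type, against 0.06 for all genes tested. Ifit3 shared 51.2% of its 50-base subsequences with Ifit3b or other transcripts, and Oas1a 57.6%, mostly with Oas1g, so the counts of these 2 genes depend on how shared reads were assigned. A share of 10% or more was also found for Ifitm3, Rtp4, Ifi35, Gbp7 and Igtp. The exons of 7 members overlap a gene on the opposite strand, Irf7, Irf1, Dhx58, Usp18, Eif2ak2, Ifi35 and Gbp2, and the use of strand in counting is not given in the sources used here.

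Across the libraries, 3 females stood apart from the rest of their groups. In Q140 Ccdc82-/- female 1 the interferon-inducible GTPases, which attack the vacuoles of intracellular pathogens, were high. Igtp reached 7.53 CPM there, against 1.98 to 3.59 CPM (median 2.28) in the other 6 libraries of the group. Gbp2 reached 6.77 CPM against 2.75 to 4.17 CPM, and Gbp3 8.83 CPM against 4.20 to 6.59 CPM. Outside the GTPases, the nucleic acid sensor Zbp1 reached 0.417 CPM against 0.0724 to 0.258 CPM, and Irf1 4.66 CPM against 2.66 to 3.89 CPM. None of these values overlapped the rest of the group. In Q140 Ccdc82-/- female 2 antiviral genes were furthest up. Ifit1, which binds viral RNA ends, reached 4.82 CPM against 1.22 to 2.11 CPM (median 1.56) in the other 6. Oasl2, an oligoadenylate synthetase homologue, reached 8.93 CPM against 2.20 to 3.67 CPM, and Mx1 reached 0.695 CPM against 0.0362 to 0.176 CPM. The GTPases Iigp1 and Igtp stood there at 1.68 and 1.58 times the median of the other 6. In Q140 Ccdc82+/- female 3, Ifit1 reached 4.10 CPM against 1.63 to 2.84 CPM, and Isg15, a ubiquitin-like modifier, reached 1.63 CPM against 0.386 to 1.46 CPM in the other 7. These libraries were the highest of their group in 12, 21 and 20 of the 35 members. The other 44 libraries led their group in 0 to 16 members.

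The mean log2 deviation of the 6 GTPases from the median of all libraries was 0.96 in Q140 Ccdc82-/- female 1, 0.42 in Q140 Ccdc82-/- female 2 and 0.37 in Q140 Ccdc82+/- female 3. In the other 44 libraries it ran from -0.32 to 0.29. For 28 other members, Ifi27l2a left out, the mean deviation was 0.26, 0.62 and 0.53 in these libraries, and -0.21 to 0.30 in the other 44. Q140 Ccdc82-/- female 1 thus lay outside the other 44 by the GTPases and within their range by the 28 other members, although 6 of the 12 members it led were not GTPases. Among 57 interferon-stimulated genes outside the members, the 3 libraries led their group in 19, 24 and 25, and the rest led in 0 to 20. The genes furthest up in Q140 Ccdc82-/- female 1 were again GTPases, with Tgtp2 at 4.02 CPM, against a median of 0.616 CPM in the rest of its group, and Gbp4 at 13.6 CPM, against 2.94 CPM. In Q140 Ccdc82-/- female 2, Gbp6 was at 1.37 CPM, against a median of 0.434 CPM, and Rsad2, the antiviral enzyme viperin, at 2.58 CPM, against 1.26 CPM.

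**Figure D1:**
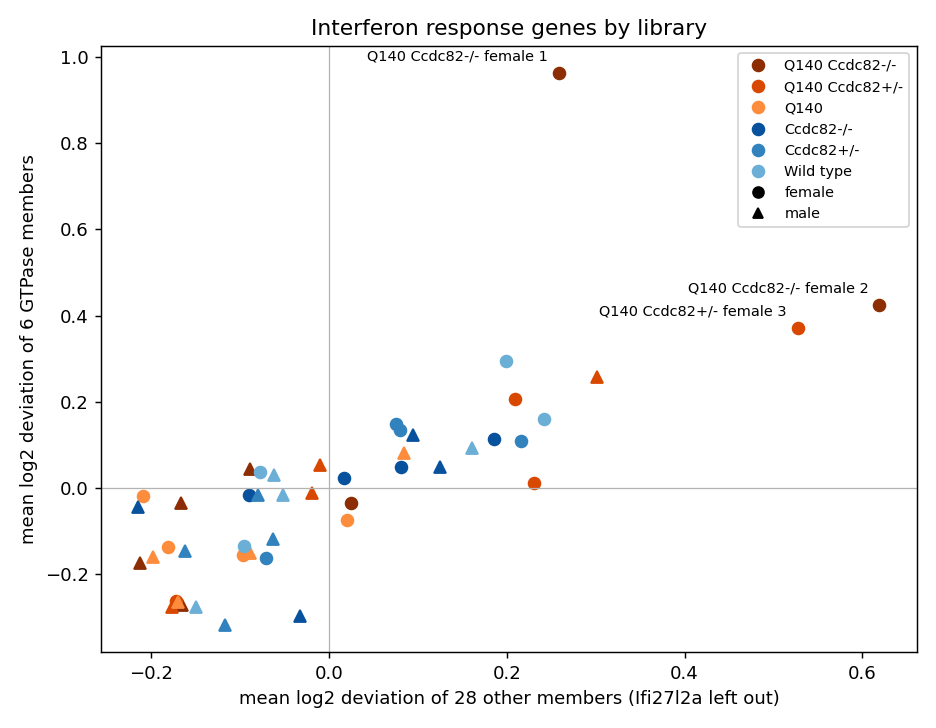
Each point is 1 of the 47 libraries, females as circles and males as triangles, coloured by genotype. The horizontal axis is the mean log2 deviation from the median library over 28 members, and the vertical axis is the same over the 6 GTPases. Q140 Ccdc82-/- female 1 stands at 0.96 on the GTPase axis, and Q140 Ccdc82-/- female 2 and Q140 Ccdc82+/- female 3 at 0.62 and 0.53 on the other.

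Transcripts of the interferons themselves were at or near 0 counts. Of 10 interferon genes looked for, Ifnb1, Ifnk, Ifna1, Ifna2, Ifna4, Ifna5 and Ifnl3 had 0 counts in all 47 libraries. Ifng, the transcript of interferon gamma, had 0 counts in both Q140 Ccdc82-/- females and 1 count in Q140 Ccdc82+/- female 3, and no library exceeded 1 count. The T cell receptor subunit transcript Cd3e had 1, 2 and 0 counts in the 3 libraries and Cd8a 0, 2 and 1 counts. The summed lymphocyte list of 13 markers, nearly all of it Cd4, was 73.9 to 99.9 CPM in Q140 Ccdc82-/- and 82.2 to 100.4 CPM in Q140 Ccdc82+/-. The 14 summed microglia markers stood at 471 and 490 CPM in Q140 Ccdc82-/- females 1 and 2, within their group's 445 to 503 CPM, and at 522 CPM in Q140 Ccdc82+/- female 3, the highest of its group, which began at 448 CPM. These libraries had 44.9 M, 48.8 M and 44.2 M counted reads. Each result below that rests on the 3 libraries is given with and without them. They were picked for high values, so leaving them out lowers the groups they belong to by construction. All 3 carry the Q140 allele, so the groups without it keep their highest libraries.

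**Figure D2:**
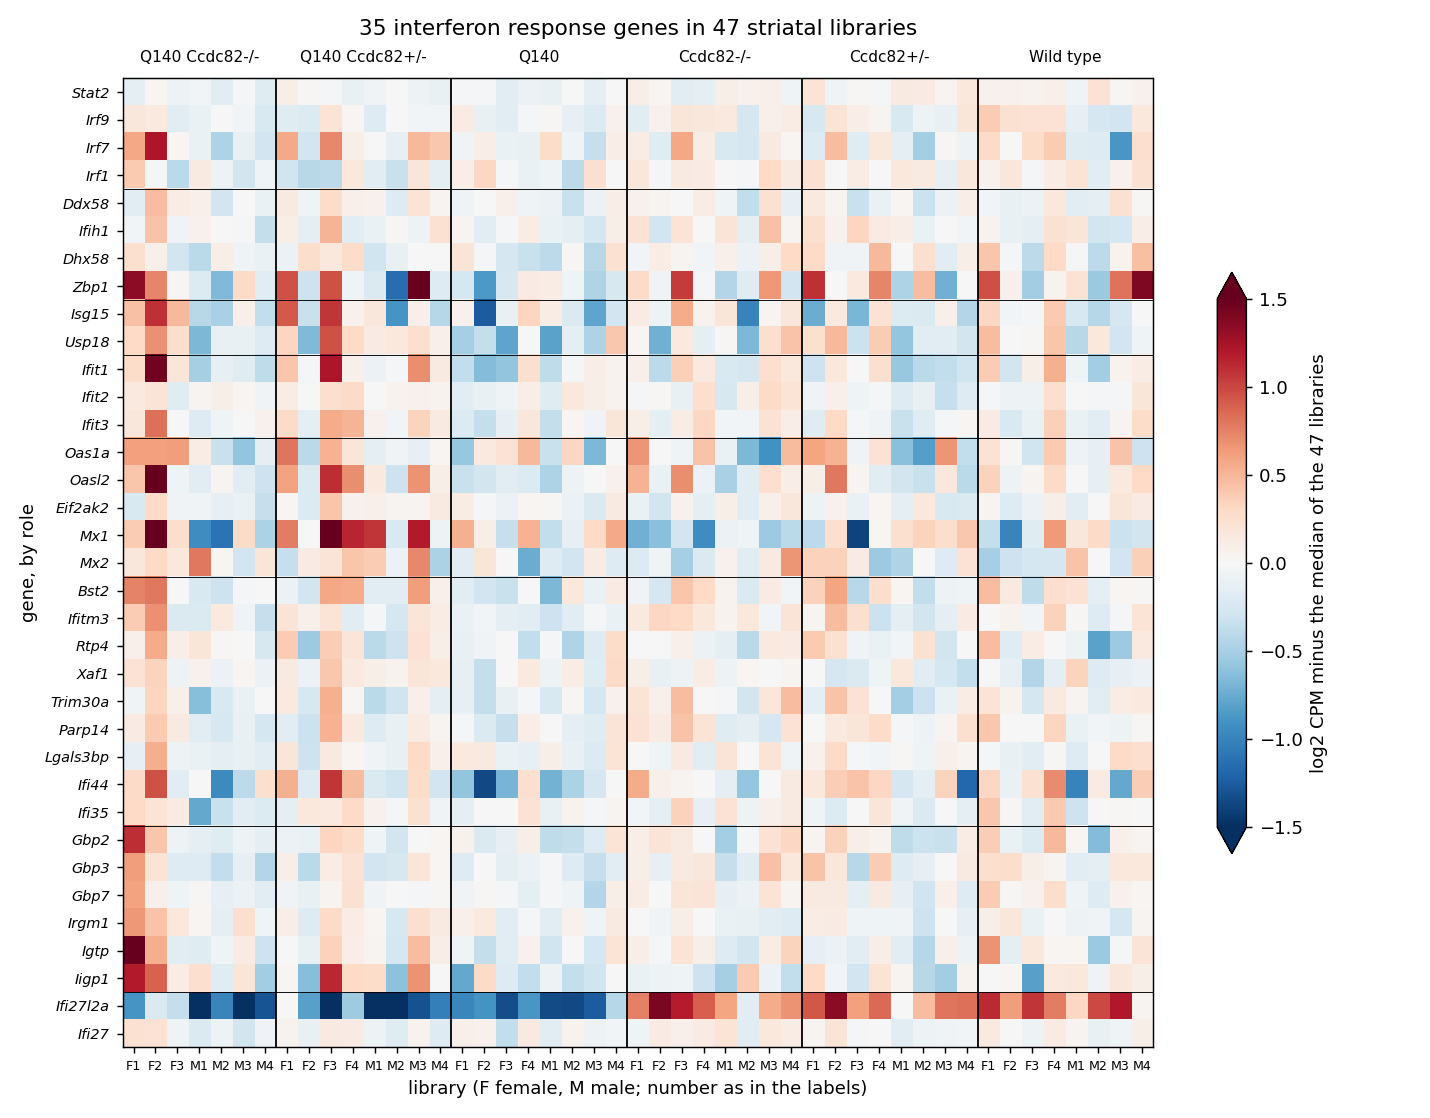
Columns are the 47 libraries by genotype and sex, and rows are the 35 members by role, with the colour giving log2 CPM minus the gene's median over all libraries (colours saturate at 1.5 in either direction). The dark columns in the first pair of groups are the 3 libraries named above, and the Ifi27l2a row is mostly blue in mice with the Q140 allele and mostly red in mice without it.

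Ifi27l2a, an interferon-induced mitochondrial protein of the Ifi27 family (chr12:103442167-103443680, minus strand, protein coding, GRCm38), was the member most clearly tied to the Q140 allele, and it fell in Q140 mice. It ranged over 0.0921 to 0.337 CPM (median 0.181) in Q140 Ccdc82-/-, against 0.355 to 1.13 CPM (median 0.680) in Ccdc82-/-. It ranged over 0.0406 to 0.399 CPM (median 0.156) in Q140 Ccdc82+/-, against 0.402 to 1.08 CPM (median 0.735) in Ccdc82+/-. In Q140 it ranged over 0.131 to 0.287 CPM (median 0.164), against 0.412 to 0.972 CPM (median 0.770) in wild type. The groups did not overlap in any of the 3 backgrounds, and for every other member they overlapped in each. How many of all genes show no overlap was not counted. The log2 fold change was -1.84 ± 0.24 (SE), -2.02 ± 0.23 and -2.02 ± 0.23 in the 3 backgrounds, with edgeR adjusted p of 1.64e-08, 8.08e-10 and 6.26e-10. Counts were low, with 2 to 18 reads per library in the Q140 groups and 17 to 62 reads in the controls. Leaving out any single library kept the mean change over the backgrounds between -2.03 and -1.92. It was -1.96 without the 3 libraries. Neither interaction with Ccdc82 genotype was called.

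Its neighbour and paralogue Ifi27l2b (chr12:103450898-103457223, minus strand), which is not among the members, fell further in the Q140 groups. It ranged over 0.0595 to 0.231 CPM in Q140 Ccdc82-/-, against 1.17 to 2.28 CPM in Ccdc82-/-. In Q140 Ccdc82+/- it ranged over 0.0163 to 0.197 CPM, against 1.30 to 1.98 CPM in Ccdc82+/-, and in Q140 over 0.0188 to 0.223 CPM, against 1.03 to 2.01 CPM in wild type. All 23 libraries with the Q140 allele lay below all 24 without it, and how many of all genes do so was not counted. Its mean log2 fold change over the backgrounds was -3.98 ± 0.16 (edgeR adjusted p = 6.33e-27). The member Ifi27, which lies on the other side of Ifi27l2a (chr12:103434211-103440239, plus strand), had 9.29 to 13.2 CPM in Q140 Ccdc82-/-, against 9.99 to 13.0 CPM in Ccdc82-/-. Over the backgrounds Ifi27 changed by -0.05 ± 0.04 (edgeR adjusted p = 0.226), and without the 3 libraries by -0.09 (adjusted p = 0.0298). The latter fit leaves out the 2 highest Ifi27 libraries of Q140 Ccdc82-/- (13.2 and 13.1 CPM), which lowers the Q140 side by construction. Ifi27l2a shared 0.483% of its 50-base subsequences with Ifi27l2b, and Ifi27 shared none with other genes, so few exact reads of that length could move between them. Of 7 other genes tested within 200000 bases on either side, 0 rose and 4 fell over the backgrounds, where 28.8% of all genes rose and 25.5% fell. Those that fell were Ppp4r4 by 0.69, Asb2 by 0.44, Otub2 by 0.10 and Ddx24 by 0.05 on the log2 scale. The other estimates, 0.24 for 9330161L09Rik, 0.05 for Gm29508 and 0.01 for Fam181a, did not pass the test.

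**Figure D3:**
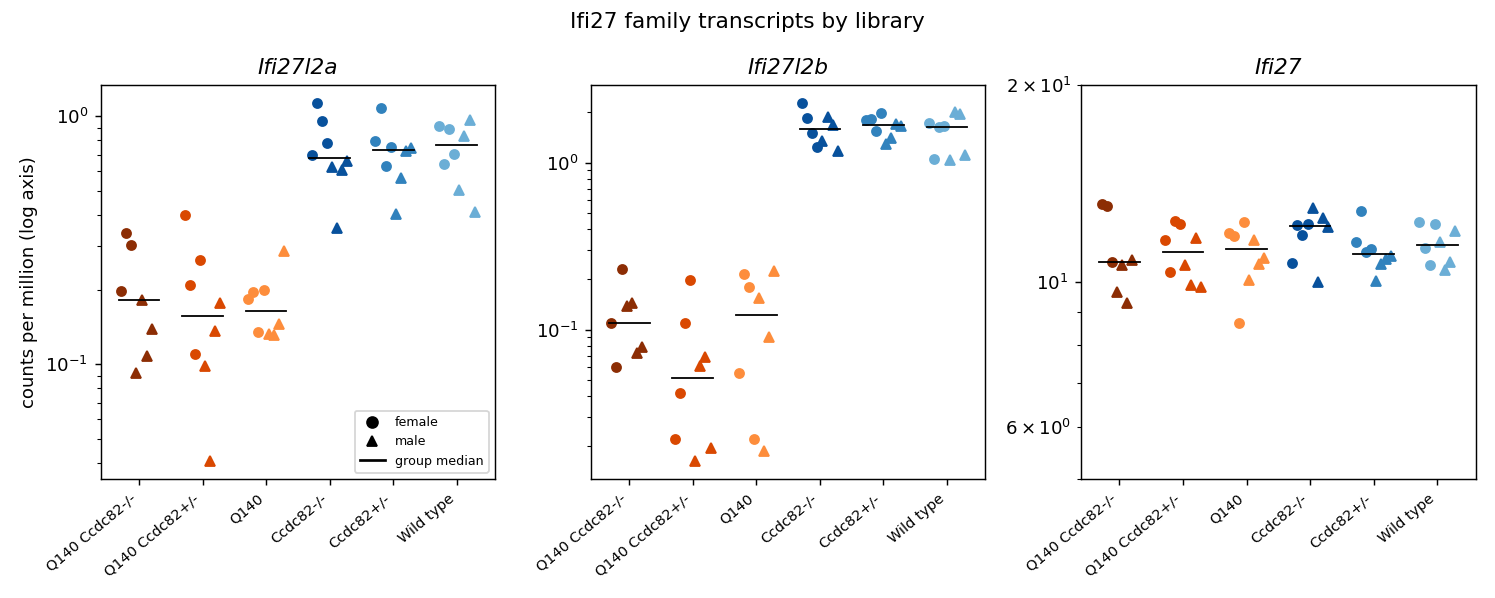
CPM of Ifi27l2a, Ifi27l2b and Ifi27 in each library on log axes that differ between panels, with circles for females, triangles for males and a bar at each group's median. Ifi27l2a and Ifi27l2b lie lower in the 3 groups with the Q140 allele than in the 3 without it, and the groups overlap for Ifi27.

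In bulk tissue, fewer cells of a type and less RNA per cell cannot be told apart. Over the 3 backgrounds 25.5% of all genes were lower at an edgeR adjusted p under 0.05. By that threshold 14 of 14 microglia markers fell with the Q140 allele, with a median log2 change of -0.14 and a lowest value of -0.17 (Aif1). Endothelial and mural markers fell in 14 of 16 cases, with a median of -0.15, and all 16 estimates were below 0. Of the medium spiny neuron markers 9 of 10 fell, with a median of -0.63 and a lowest value of -1.09 (Penk). The highest of that list was Tac1 at 0.17. The mean change of Ifi27l2a, -1.96, was larger than that of any marker on these 3 lists. Their part in it was not tested.

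Few other members were called with the Q140 allele, and those were in both directions. In Q140 against wild type, 0 of 35 were higher and 2 lower, Ifi27l2a and Stat2, with an edgeR adjusted p under 0.05. Of all genes tested, 18.2% were higher and 16.5% lower. The estimate was below 0 for 32 of 35 members, and the median was -0.13, against 0.00 for all genes. In Q140 Ccdc82+/- against Ccdc82+/-, 5 were higher and 3 lower, where 18.4% of all genes were higher and 16.7% lower, and the median was 0.12. In Q140 Ccdc82-/- against Ccdc82-/-, 2 were higher and 1 lower, where 17.5% were higher and 15.7% lower, and the median was 0.06. The mean change over the 3 backgrounds had 3 members higher and 3 lower, where 28.8% were higher and 25.5% lower. Its median was 0.02. Without the 3 libraries 0 were higher and 9 lower over the backgrounds, where 27.8% of all genes were higher and 24.5% lower, so the share of members lower was near that of all genes. The median was then -0.07, in a fit that takes high libraries from the Q140 side alone.

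Among the transcription factors, Stat2, a subunit of the complex that answers type I interferon, was lower in Q140 mice by a small margin. It ranged over 25.3 to 28.6 CPM (median 27.5) in Q140, against 27.7 to 33.2 CPM (median 29.8) in wild type, and in Q140 Ccdc82+/- over 26.4 to 30.3 CPM (median 27.8), against 27.7 to 32.9 CPM (median 30.3) in Ccdc82+/-. In Q140 Ccdc82-/- it ranged over 25.3 to 29.3 CPM (median 27.1), against 25.4 to 30.5 CPM (median 29.7) in Ccdc82-/-. The groups overlapped in each background. The log2 change was -0.13 ± 0.04 in Q140 against wild type (edgeR adjusted p = 0.00959), -0.11 ± 0.04 on the Ccdc82+/- background (adjusted p = 0.0275) and -0.09 ± 0.04 on the Ccdc82-/- background (adjusted p = 0.107), and its mean was -0.11 ± 0.02 (adjusted p = 9.77e-05). With plate column as a factor the first 2 calls were lost, with the deposited FPKM values those and the mean call, and in females alone the mean call. The Ccdc82+/- call was also lost without any one of Ccdc82+/- female 1, male 1 or male 4, or Q140 Ccdc82+/- female 4, male 3 or male 4, with adjusted p up to 0.0802.

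Irf1, a factor induced by interferon gamma, ranged over 2.64 to 4.03 CPM (median 3.02) in Q140 Ccdc82+/-, against 3.27 to 4.18 CPM (median 3.86) in Ccdc82+/-, and fell there by 0.25 on the log2 scale (SE 0.09, edgeR adjusted p = 0.0317). It was 2.66 to 4.66 CPM in Q140 Ccdc82-/-, against 3.51 to 4.37 CPM in Ccdc82-/-, and 2.68 to 4.40 CPM in Q140, against 3.14 to 4.17 CPM in wild type. The groups overlapped in every background. The mean change was -0.15 ± 0.05 (edgeR adjusted p = 0.016). The Ccdc82+/- call was lost without any one of Ccdc82+/- female 1 or male 4, or Q140 Ccdc82+/- female 1, female 2, female 3 or male 2 (edgeR adjusted p up to 0.0784), with plate column as a factor, and without the 3 libraries (adjusted p = 0.0533). The mean call was lost in females alone and in males alone. With the deposited FPKM values both calls were lost.

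Irf9, which guides the complex with Stat2 to DNA, was not called in any comparison with all libraries. It ranged over 11.3 to 14.9 CPM in Q140 Ccdc82-/-, against 11.2 to 15.1 CPM in Ccdc82-/-, over 11.6 to 15.3 CPM in Q140 Ccdc82+/-, against 11.2 to 15.3 CPM in Ccdc82+/-, and over 11.6 to 14.5 CPM in Q140, against 10.8 to 17.3 CPM in wild type. Irf7, the factor that amplifies type I interferon production, was highest in the library of Q140 Ccdc82-/- female 2. It ranged over 1.03 to 3.39 CPM (median 1.33) in Q140 Ccdc82-/-, against 1.20 to 2.17 CPM (median 1.51) in Ccdc82-/-. It had a median of 1.73 CPM and a highest value of 2.40 CPM in Q140 Ccdc82+/-, against a median of 1.33 CPM and a lowest of 0.999 CPM in Ccdc82+/-, and it ranged over 1.12 to 1.75 CPM in Q140, against 0.763 to 1.88 CPM in wild type. The groups overlapped throughout for both genes. The mean change of Irf7 was 0.15 ± 0.10 (edgeR adjusted p = 0.193), and that of Irf9 -0.08 ± 0.05 (adjusted p = 0.139).

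Of the 4 sensors of foreign RNA or DNA, Ddx58 (RIG-I), Ifih1 (MDA5), Dhx58 (LGP2) and Zbp1, none was called. Zbp1, which senses left-handed nucleic acids and starts necroptosis, rested on 2 to 22 reads per library and varied within groups. It ranged over 0.0724 to 0.417 CPM in Q140 Ccdc82-/-, against 0.0924 to 0.334 CPM in Ccdc82-/-, over 0.0406 to 0.501 CPM in Q140 Ccdc82+/-, against 0.0681 to 0.345 CPM in Ccdc82+/-, and over 0.0585 to 0.155 CPM in Q140, against 0.0811 to 0.436 CPM in wild type. The highest Q140 Ccdc82+/- value was in male 3, outside the 3 libraries. The change in Q140 against wild type was -0.82 ± 0.39 (edgeR adjusted p = 0.102). Isg15 and Usp18, the protease that removes Isg15 and restrains receptor signalling, were not called either in the Q140 comparisons.

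The 3 Ifit genes, which bind viral RNA, were all higher in Q140 Ccdc82+/- than in Ccdc82+/-. Ifit1 ranged over 1.63 to 4.10 CPM (median 1.88) in Q140 Ccdc82+/-, against 1.16 to 2.06 CPM (median 1.40) in Ccdc82+/-, a log2 change of 0.55 ± 0.20 (edgeR adjusted p = 0.0276). Ifit2 ranged over 6.90 to 8.44 CPM (median 7.22), against 5.42 to 7.30 CPM (median 6.52), a change of 0.21 ± 0.07 (adjusted p = 0.0113). Ifit3 ranged over 5.76 to 9.33 CPM (median 7.33), against 5.01 to 7.77 CPM (median 6.14), a change of 0.28 ± 0.11 (adjusted p = 0.0443). The groups overlapped for all 3. With the 3 libraries left out the changes were 0.38 (adjusted p = 0.0451), 0.19 (0.0297) and 0.23 (0.0562). The Ifit2 call also held without any single library. The Ifit1 call was lost without any one of Ccdc82+/- female 1 or male 1, or Q140 Ccdc82+/- female 3 or male 3 (adjusted p up to 0.115). The Ifit3 call was lost without any one of Ccdc82+/- females 1, 3 and 4 and males 1 and 2, or Q140 Ccdc82+/- females 1, 3 and 4 and males 3 and 4 (adjusted p up to 0.107). Without a filter on low counts the Ifit1 and Ifit3 calls were lost. The Ifit3 call was also lost without a sex term and with plate column as a factor.

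In the other backgrounds no Ifit gene was called. Ifit1 ranged over 1.22 to 4.82 CPM (median 1.59) in Q140 Ccdc82-/-, against 1.31 to 2.24 CPM (median 1.88) in Ccdc82-/-, and over 1.09 to 2.06 CPM (median 1.53) in Q140, against 1.20 to 2.54 CPM (median 1.83) in wild type. Ifit2 ranged over 6.11 to 7.92 CPM in Q140 Ccdc82-/-, against 5.87 to 8.47 CPM in Ccdc82-/-, and over 6.07 to 7.73 CPM in Q140, against 6.55 to 8.21 CPM in wild type. Ifit3 ranged over 5.50 to 11.3 CPM in Q140 Ccdc82-/-, against 5.72 to 7.82 CPM in Ccdc82-/-, and over 4.91 to 7.18 CPM in Q140, against 5.40 to 8.08 CPM in wild type. The Q140 estimates therefore differed in sign between backgrounds for Ifit1, at 0.55 on Ccdc82+/- and -0.22 against wild type. The interaction was not called for any Ifit gene.

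Among the antiviral enzymes and Mx proteins, Mx1 was higher with the Q140 allele on both mutant Ccdc82 backgrounds, from few reads. It ranged over 0.0362 to 0.695 CPM (median 0.160) in Q140 Ccdc82-/-, against 0.0459 to 0.118 CPM (median 0.0789) in Ccdc82-/-, a log2 change of 1.19 ± 0.45 (edgeR adjusted p = 0.0366). It ranged over 0.102 to 0.595 CPM (median 0.277) in Q140 Ccdc82+/-, against 0.0226 to 0.181 CPM (median 0.157) in Ccdc82+/-, a change of 0.98 ± 0.38 (adjusted p = 0.0388). In Q140 it ranged over 0.0884 to 0.207 CPM (median 0.150), against 0.0427 to 0.220 CPM (median 0.101) in wild type, a change of 0.35 ± 0.43 (adjusted p = 0.569). All groups overlapped, and counts ran from 1 to 35 reads. The mean change was 0.84 ± 0.24 (adjusted p = 0.00294). With those libraries left out, the changes were 0.23 on Ccdc82-/- (adjusted p = 0.745), 0.72 on Ccdc82+/- (0.0632) and 0.43 over the backgrounds (0.0771). Leaving out Q140 Ccdc82-/- female 2 alone gave 0.42 on the Ccdc82-/- background (adjusted p = 0.508). That call was also lost without any one of Ccdc82-/- females 1, 2 and 4. The Ccdc82+/- call was lost without any one of Ccdc82+/- females 1 to 4, or Q140 Ccdc82+/- female 3, female 4, male 1 or male 3 (adjusted p up to 0.141). Both calls were also lost with a replicate block and with voom. The Ccdc82-/- call was lost with plate column as a factor, and the Ccdc82+/- call without a filter on low counts and with DESeq2.

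Oasl2 was not called with the Q140 allele. It ranged over 2.20 to 8.93 CPM (median 2.61) in Q140 Ccdc82-/-, against 1.94 to 4.46 CPM (median 2.75) in Ccdc82-/-, over 2.20 to 5.95 CPM (median 3.60) in Q140 Ccdc82+/-, against 2.05 to 4.77 CPM (median 2.63) in Ccdc82+/-, and over 1.97 to 2.87 CPM (median 2.41) in Q140, against 2.52 to 3.49 CPM (median 2.92) in wild type. Oas1a, Eif2ak2 (the kinase PKR) and Mx2, which is annotated as a polymorphic pseudogene, were not called.

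Of the 9 membrane and other effectors, Xaf1, which promotes cell death, was higher in Q140 Ccdc82+/-. It ranged over 5.41 to 7.61 CPM (median 6.35) in Q140 Ccdc82+/-, against 4.44 to 6.39 CPM (median 5.02) in Ccdc82+/-, a log2 change of 0.28 ± 0.08 (edgeR adjusted p = 0.00626). It ranged over 5.38 to 7.26 CPM in Q140 Ccdc82-/-, against 5.32 to 6.19 CPM in Ccdc82-/-, and over 4.48 to 7.03 CPM in Q140, against 4.23 to 7.21 CPM in wild type. The groups overlapped in each background. The Ccdc82+/- call held without any single library and without the 3 libraries (0.24, adjusted p = 0.0183). The mean change was 0.14 ± 0.05 (adjusted p = 0.0142), and 0.09 (0.13) without the 3 libraries and 0.10 (0.222) in males alone. Bst2, Ifitm3, Rtp4, Trim30a, Parp14, Lgals3bp, Ifi44 and Ifi35 were not called with all libraries. Ifitm3 was lower without the 3 libraries in Q140 Ccdc82-/- against Ccdc82-/- (-0.26, edgeR adjusted p = 0.0403). The libraries left out held the 2 highest Ifitm3 values of Q140 Ccdc82-/- (7.14 and 5.78 CPM), which lowers that group by construction.

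Among the 6 GTPases, Irgm1, which acts in the removal of intracellular pathogens, was higher in Q140 Ccdc82-/-. It ranged over 4.31 to 7.40 CPM (median 5.25) in Q140 Ccdc82-/-, against 4.13 to 5.01 CPM (median 4.49) in Ccdc82-/-, a log2 change of 0.28 ± 0.08 (edgeR adjusted p = 0.00422). It ranged over 3.98 to 5.78 CPM in Q140 Ccdc82+/-, against 3.79 to 5.14 CPM in Ccdc82+/-, and over 4.21 to 5.24 CPM in Q140, against 3.91 to 5.30 CPM in wild type. The groups overlapped. The call held without any single library, but without the 3 libraries the change was 0.14 (adjusted p = 0.168), and the mean change of 0.14 ± 0.04 (adjusted p = 0.00553) became 0.09 (0.0707). The mean call was also lost in females alone (0.15, adjusted p = 0.0673) and in males alone (0.14, 0.0557). Igtp ranged over 1.98 to 7.53 CPM (median 2.35) in Q140 Ccdc82-/-, against 2.03 to 3.10 CPM (median 2.63) in Ccdc82-/-, over 2.03 to 3.41 CPM in Q140 Ccdc82+/-, against 1.81 to 2.64 CPM in Ccdc82+/-, and over 1.91 to 2.84 CPM in Q140, against 1.66 to 3.94 CPM in wild type. Its highest value was 3.20 times its group median, and it was not called. Gbp2, Gbp3, Gbp7 and Iigp1 were not called. Gbp3 was lower over the backgrounds without the 3 libraries (-0.21, edgeR adjusted p = 0.00399). That fit leaves out the 2 highest Gbp3 libraries of Q140 Ccdc82-/- (8.83 and 6.59 CPM), which lowers the Q140 side by construction.

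**Figure D4:**
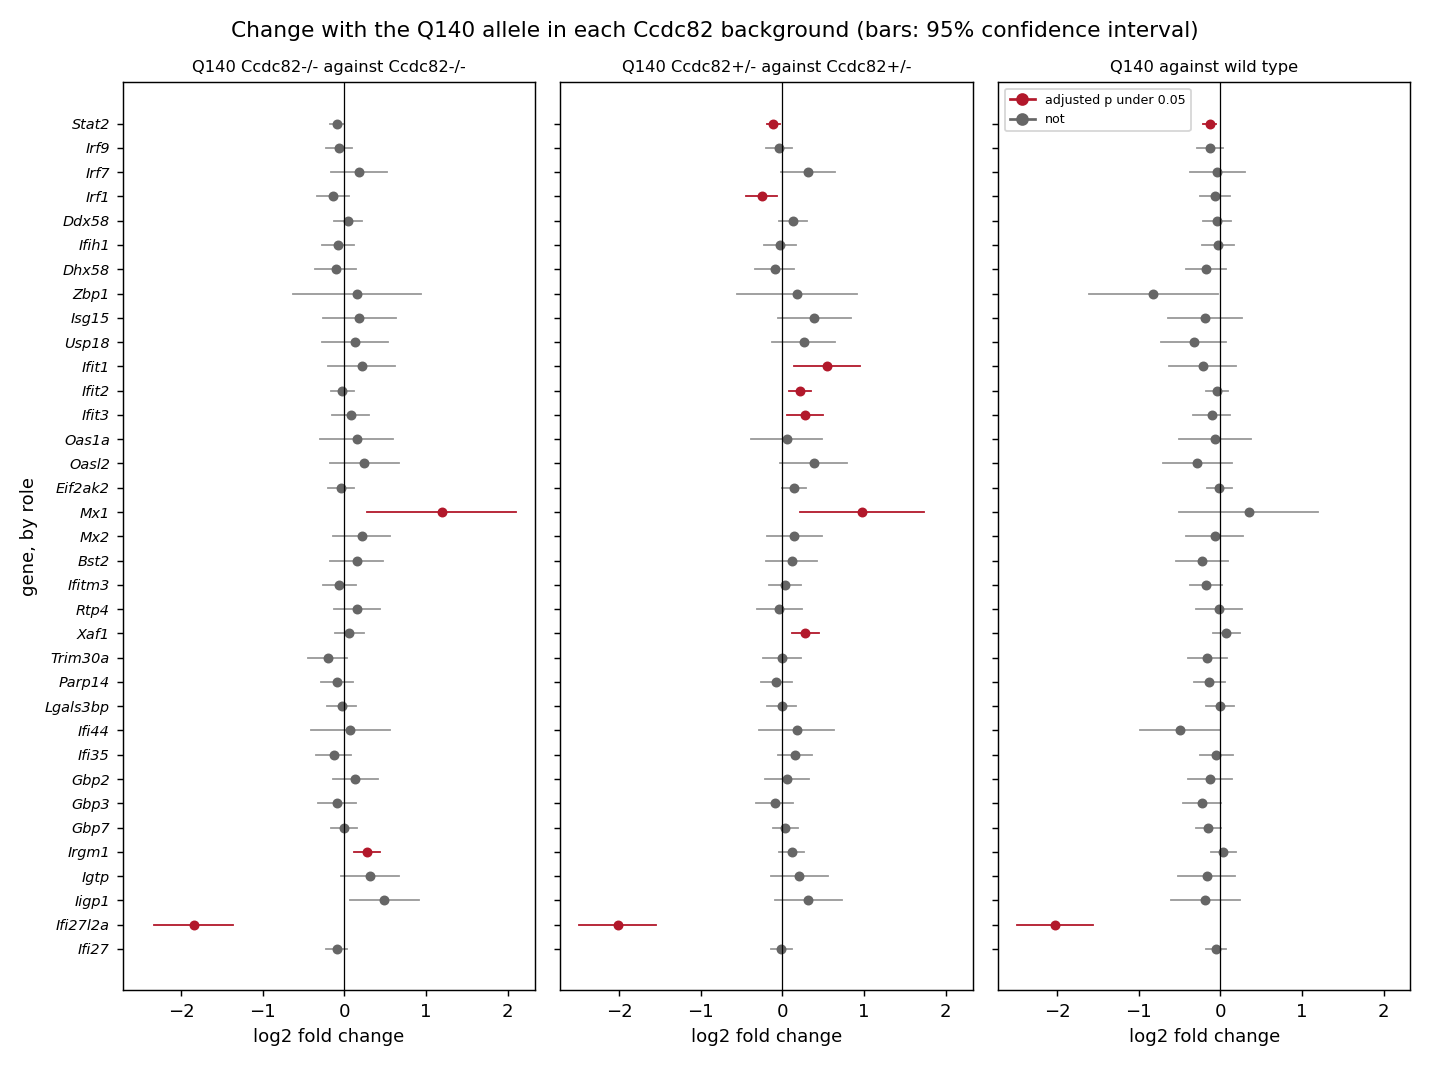
Log2 fold change of each member between mice with and without the Q140 allele in the 3 Ccdc82 backgrounds, with 95% confidence intervals; red marks an edgeR adjusted p under 0.05. Ifi27l2a lies near -2 in all 3 panels, and the other called members differ between panels.

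No member was called for Ccdc82 genotype. In Ccdc82-/- against wild type and in Ccdc82+/- against wild type 0 of 35 members passed, where 0.00521% of all genes did, which is 1 gene. The medians were 0.01 and -0.05, and 0 and 1 members had an unadjusted p under 0.05, where 4.19% and 3.27% of all genes did. Within Q140 mice, Q140 Ccdc82-/- against Q140 and Q140 Ccdc82+/- against Q140 likewise gave 0 members, against 0.00521% of all genes in each. Both comparisons share the 8 Q140 libraries, in which the estimate against wild type was below 0 for 32 of 35 members. The estimates were above 0 for 30 and 32 of 35 members, with medians of 0.20 and 0.12, against 0.00 for all genes. An unadjusted p under 0.05 was found for 9 and 8 members, and for 3.71% and 5.74% of all genes. Without the 3 libraries the medians were 0.02 and 0.10, with 20 and 32 members above 0. The Oasl2 estimate was 0.53 ± 0.21 in Q140 Ccdc82-/- against Q140 and 0.57 ± 0.21 in Q140 Ccdc82+/- against Q140, and neither passed. The interactions of Q140 with Ccdc82-/- and with Ccdc82+/- gave 0 members and 0% of all genes, and 2 and 5 members had an unadjusted p under 0.05, where 4.3% and 5.27% of all genes did. DESeq2, voom and every other setting tried, each single library left out included, also called 0 members in these 6 comparisons.

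Members were lower in males than in females more often than the reverse. The sex term of the same fit, which is male against female over all 6 genotypes and was examined after the values had been seen, had 0 members higher and 10 lower, where 4.03% of all genes were higher and 4.64% lower. The estimate was below 0 for 32 of 35 members, with a median of -0.17, against 0.00 for all genes. The 10 were Irf7, Isg15, Oas1a, Oasl2, Parp14, Ifi44, Gbp2, Gbp7, Irgm1 and Ifi27l2a. Oas1a, which makes the activator of the RNA-degrading enzyme RNase L, ranged over 0.194 to 0.658 CPM (median 0.362) in 24 males, against 0.256 to 0.732 CPM (median 0.473) in 23 females, a change of -0.47 ± 0.13 (edgeR adjusted p = 0.0163). Isg15 ranged over 0.355 to 0.855 CPM (median 0.634) in males, against 0.292 to 1.65 CPM (median 0.820) in females, a change of -0.45 ± 0.13 (adjusted p = 0.0236). Gbp2 ranged over 1.97 to 3.89 CPM (median 2.89) in males, against 2.67 to 6.77 CPM (median 3.32) in females, a change of -0.28 ± 0.08 (adjusted p = 0.0218). The sexes overlapped for all 3 genes.

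The 3 libraries that stood apart were all female, and without them 1 of the 10 members, Ifi27l2a, was called, where 2.61% of all genes were higher and 3.14% lower. Oas1a then changed by -0.42 (edgeR adjusted p = 0.0544), Isg15 by -0.32 (0.117) and Gbp2 by -0.18 (0.109), and the estimate was below 0 for 27 of 35 members with a median of -0.09. Oas1a, Gbp2, Gbp3, Gbp7 and Ifi27l2a had a lower male than female mean log2 CPM in each of the 6 genotypes with all libraries and also without the 3. How many of all genes do the same was not counted. Ifi27l2a ranged over 0.0921 to 0.181 CPM in males, against 0.198 to 0.337 CPM in females of Q140 Ccdc82-/-, and over 0.355 to 0.659 CPM in males, against 0.700 to 1.13 CPM in females of Ccdc82-/-. The sexes did not overlap in these 2 genotypes, and they overlapped in the other 4. Each sex had only 3 or 4 libraries per genotype, and the share of all genes with such a separation was not counted. Its sex change was -0.52 ± 0.13 (adjusted p = 0.0103), and -0.52 without the 3 libraries (0.0168). Oasl2 lost its call without any one of 25 libraries, Irgm1 without any one of 11 and Parp14 without any one of 7, each including Q140 Ccdc82+/- female 3. Gbp7 lost it without Q140 Ccdc82-/- female 1, with an adjusted p of 0.0501. Microglia markers were lower in males in 4 of 14 cases and higher in 0, with a median of -0.03, and their part was not tested.

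**Figure D5:**
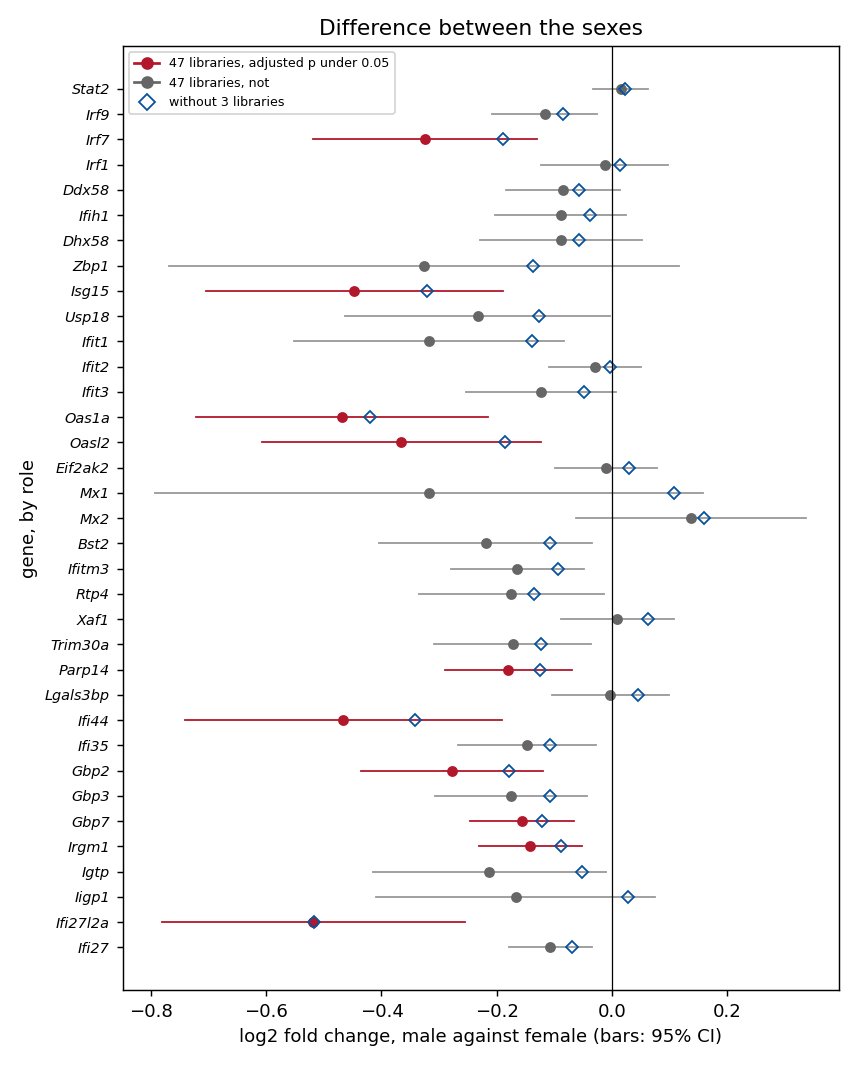
Log2 fold change of each member in males against females over all genotypes, with 95% confidence intervals and red for an edgeR adjusted p under 0.05; open diamonds give the value without the 3 libraries. The diamonds lie nearer to 0 for 9 of the 10 called members, and at the same -0.52 for Ifi27l2a.

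Other genes of the pathway were described from lists written with earlier results known. Over the backgrounds, where 28.8% of all genes were higher and 25.5% lower, genes of the interferon receptors moved in both directions. Ifnlr1, a subunit of the type III interferon receptor, rose by 1.52 ± 0.14 on the log2 scale and Ifngr2, a subunit of the interferon gamma receptor, by 0.50 ± 0.03, while Ifngr1, the other gamma receptor subunit, fell by 0.14 (SE 0.02). Of 14 further sensors and adaptors, 4 rose, among them Mb21d1 (cGAS, 0.41 ± 0.07), and 4 fell, among them the kinase Tbk1 (-0.09 ± 0.01), Unc93b1 (-0.11 ± 0.03) and Tlr9 (-0.24 ± 0.07). Of 10 negative regulators tested, 2 rose, Samhd1 (0.22 ± 0.02) and Irf2 (0.12 ± 0.02), and 4 fell, among them Pias1 (-0.15 ± 0.01) and Adar (-0.05 ± 0.01).

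The counts here stand beside the same shares of all genes, 28.8% higher and 25.5% lower. Of 15 class I genes, 5 rose and 0 fell. Those that rose were led by the proteasome activator subunit Psme1 (0.38 ± 0.03), the immunoproteasome subunit Psmb10 (0.37 ± 0.04), the trimming peptidase Erap1 (0.28 ± 0.03) and the class I chain H2-D1 (0.17 ± 0.04). Of 6 class II genes tested, 0 rose and 2 fell, H2-DMa (-0.40 ± 0.04) and H2-DMb1 (-0.54 ± 0.08), which load peptide. Among 58 other interferon-stimulated genes, 4 rose and 9 fell, with a median of -0.02, and Ifi27l2b, Helz2 (-0.35 ± 0.04), Irf8 (-0.34 ± 0.05) and Znfx1 (-0.14 ± 0.02) had the lowest p-values. Irf8 is a factor of microglia. The 14 microglia markers changed by -0.17 to -0.08, and their part in the Irf8 value was not tested.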

How the data were processed

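Per the labels, striatal RNA was extracted with a Qiagen RNeasy kit and made into TruSeq stranded libraries. Per the submitters' processing notes, STAR 2.7.5c, SAMtools 1.10 and HTSeq 0.12.3 were used with GRCm38 (mm10); the annotation release and the use of strand in counting are not given in the sources used here. The deposited table of raw read counts per gene was used for all tests. The FPKM values deposited by the authors equal count per total and length, and were used for levels between genes. Counts were fitted with edgeR 4.0.16 (quasi-likelihood, robust, TMM scaling, filterByExpr) in R 4.3.3 with group and sex as terms over all 47 libraries, and p-values were adjusted by Benjamini-Hochberg over 19193 genes with a threshold of 0.05. The 10 planned contrasts were tested with sex in the fit, and the test of males against females was added after its values were seen. CPM values use TMM-scaled totals. Alternatives were RLE size factors, no filter, no sex term, replicate block, plate column, DESeq2 1.42.0, limma 3.58.1 (voom, and log2(FPKM + 0.1)), each sex alone and each library left out. Scripts were tested on simulated data. The members and lists were chosen with earlier results of these data known. Values and statistics are given for 14 members, those called in any of the 10 planned contrasts, the 4 transcription factors and those with a library above 3 times its group median at 0.5 CPM or more; the members named in the sex comparison and in the libraries that stand apart were chosen after their values were seen. Of other lists, up to 4 genes with the smallest p are named. One gene of these lists, and the counts of its list, are not reported here.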

Additional observations from a re-analysis of the deposited data

Results flagged for a closer look

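Among 84 sets of libraries, 14 members in 6 genotypes, 9 had a highest library that lay far from the next one by Dixon's criterion. Chance alone gives about 4.2 among sets not chosen by their values. Oasl2, Igtp and Zbp1 were among the 14 because of a high library, which takes in 3 of the 9, and the sets share libraries, so the 2 numbers cannot be compared. Of these, 4 were in Q140 Ccdc82-/- female 2, where Ifit1 was at 4.82 CPM (next library 2.11), Ifit3 at 11.3 CPM (next 7.12), Oasl2 at 8.93 CPM (next 3.67) and Mx1 at 0.695 CPM (next 0.176). Igtp was at 7.53 CPM in Q140 Ccdc82-/- female 1 (next 3.59). Ifi27l2a was at 0.287 CPM in Q140 male 4 (next 0.199), still below every wild type library. Irf7 was at 2.17 CPM in Ccdc82-/- female 3 (next 1.58), Oasl2 at 4.77 CPM in Ccdc82+/- female 2 (next 3.06) and Stat2 at 33.2 CPM in wild type male 2 (next 30.1).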

How the results depend on the processing

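Counts of members called are given here. For most of them the share of all genes called under the same setting is not given. A change in a count is therefore not a result about the members. Leaving out 1 library at a time gave 2 to 4 members in Q140 against wild type (2 with all libraries, 4 without Q140 male 4), 3 to 8 in Q140 Ccdc82+/- against Ccdc82+/- (8 with all libraries, 3 without Ccdc82+/- female 1, 4 without Q140 Ccdc82+/- female 3 or male 3, 5 without Ccdc82+/- male 1 or Q140 Ccdc82+/- female 4), 2 to 4 in Q140 Ccdc82-/- against Ccdc82-/-, 6 to 8 for the mean over the backgrounds, 7 to 13 for sex and 0 for the Ccdc82 comparisons and interactions. Plate column as a factor gave 1 member in Q140 against wild type and 5 on the Ccdc82+/- background. The deposited FPKM values, on which 5907 genes were higher and 2104 lower in Q140 against wild type where the counts gave 3485 and 3170, gave 1 member in Q140 against wild type and 4 for sex. Without a filter on low counts the Ccdc82+/- background gave 5. Without the 3 libraries that stand apart, an alternative chosen after seeing the data, it gave 5, where 17.6% of all genes were higher and 16% lower. Sex then gave 1, where 2.61% of all genes were higher and 3.14% lower. Over the backgrounds, females alone gave 3 and males alone 2. The causes were not tested. With a replicate block the 4 Q140 counts were 2, 7, 2 and 6. Deviations correlated over 0.1 in 0 of 8, 1 of 8 and 3 of 7 same-numbered pairs of Q140 and control libraries, at most 0.54. In Ccdc82-/- against wild type 3 of 8 pairs did. Pairs with different numbers were not compared, so whether the numbers pair the libraries was not tested. Library names also carry a number that some libraries of different groups share. Its meaning is not given in the sources used here, and it was in no fit. No member changed direction among the results called. Depth limits Mx1, Zbp1 and Ifi27l2a, which rest on few reads.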
